A study of Mus musculus with 33 samples.

Results

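The immediate early genes described here are 10 genes of the 54146 listed in each library: Fos, Fosb, Jun, Junb, Jund, Egr1, Atf3, Ier2, Dusp1 and Nr4a1. They were chosen by name, and their levels were followed in RNA sequencing of sorted mouse microglia over 33 libraries in 10 groups. All mice were C57BL/6 and are labelled female. It was already known when the list was drawn up that Fos is lower in 5xFAD than in wild-type microglia, so the test of that difference describes these libraries and is not independent support.

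At 3 months of age, IRF8KO mice, which lack the myeloid transcription factor IRF8 in every cell, were set against wild-type (WT) mice, with 4 libraries each. At 9 months there were 3 libraries each of WT, IRF8KO, 5xFAD/WT (called 5xFAD here) and 5xFAD/IRF8KO mice. 5xFAD mice, a model of amyloid deposition, carry mutant human transgenes driven by the Thy1 promoter, which is active mainly in neurons. Batf3-/- mice (Batf3KO), which lack a leucine zipper partner of IRF8, and a separate WT group had 3 libraries each at 3 months. In the conditional knockout, both groups carried the floxed Irf8 allele (IRF8flox) and received tamoxifen for 5 days from postnatal day 12. The 3 libraries called flox carried no Cre, and the 4 called Cre carried Cx3cr1CreERT2, a tamoxifen-dependent recombinase expressed in microglia and other Cx3cr1-positive myeloid cells, with Rosa26LSL-EYFP as a reporter used to sort the cells at 3 months. How flox cells, which have no recombinase to switch on the reporter, were gated is not stated in the labels. Per the labels, microglia were isolated from each brain without enzymes. The labels do not say outright that each library is a separate animal, so p-values measure the spread between these libraries.

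On GRCm38 the members lie at chr12:85473890-85477273 (Fos, plus strand), chr7:19302696-19310051 (Fosb, minus), chr4:95049034-95052222 (Jun, minus), chr8:84974484-84978718 (Junb, minus), chr8:70698949-70700616 (Jund, plus), chr18:34859823-34864984 (Egr1, plus), chr1:191170296-191218039 (Atf3, minus), chr8:84661331-84662852 (Ier2, minus), chr17:26505590-26562128 (Dusp1, minus) and chr15:101254269-101274795 (Nr4a1, plus).

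Immediate early genes are transcribed within minutes of a stimulus, from promoters on which factors such as SRF and CREB already sit, and need no new protein synthesis. FOS and JUN family proteins pair through leucine zippers to form AP-1, while EGR1 and NR4A1 are DNA-binding factors of other families and DUSP1 is a phosphatase that switches off the MAP kinases which started the response. In microglia the same genes are well known to respond both to signals in the brain and to the handling of cells after the brain is opened.

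The promoters of 4 members are shown because the results below turn on them and their stretches overlap no annotated exon. Each is the 250 bases before the RefSeq transcription start on GRCm38.p6, read 5′ to 3′ on the gene's own strand. They lie at chr12:85473640-85473889 (Fos, plus strand), chr4:95052223-95052472 (Jun, minus strand), chr8:84978749-84978998 (Junb, minus strand) and chr15:101266596-101266845 (Nr4a1, plus strand). The Nr4a1 stretch lies within the gene's annotated span. Capitals mark the core of the cyclic AMP response element bound by CREB and ATF proteins, TGACG or its reverse complement CGTCA, and in Jun the AP-1-like site TGACATCA.
Fos: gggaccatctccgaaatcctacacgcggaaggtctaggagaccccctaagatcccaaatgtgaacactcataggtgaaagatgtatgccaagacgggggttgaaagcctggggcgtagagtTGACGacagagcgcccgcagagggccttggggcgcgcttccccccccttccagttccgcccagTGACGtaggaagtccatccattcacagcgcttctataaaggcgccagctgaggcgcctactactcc
Jun: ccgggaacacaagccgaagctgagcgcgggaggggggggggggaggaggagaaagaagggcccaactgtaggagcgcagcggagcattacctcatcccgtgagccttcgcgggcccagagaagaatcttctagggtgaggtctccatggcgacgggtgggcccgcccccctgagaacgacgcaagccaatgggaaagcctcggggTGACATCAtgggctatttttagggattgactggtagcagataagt
Junb: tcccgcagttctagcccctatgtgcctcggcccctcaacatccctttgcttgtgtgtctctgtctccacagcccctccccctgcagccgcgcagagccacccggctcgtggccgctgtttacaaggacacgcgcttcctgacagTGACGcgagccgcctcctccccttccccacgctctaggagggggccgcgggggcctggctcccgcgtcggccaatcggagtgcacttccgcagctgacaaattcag
Nr4a1: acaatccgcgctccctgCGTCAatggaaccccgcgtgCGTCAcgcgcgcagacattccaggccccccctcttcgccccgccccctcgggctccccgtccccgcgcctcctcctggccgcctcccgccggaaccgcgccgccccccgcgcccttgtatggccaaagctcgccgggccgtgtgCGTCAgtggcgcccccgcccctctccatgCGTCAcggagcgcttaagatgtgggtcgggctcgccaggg

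RefSeq promoters were found for 8 of the 10 members (not for Egr1 and Ier2). On either strand, TGACG was present in 6 of the 8, against 17.8% of 32851 mouse promoter stretches of the same length. Fos held it at positions -129 to -125 and -66 to -62 before the start, Junb at -106 to -102, and Nr4a1 held 4 copies. The whole element TGACGTCA, of which TGACG is a part, was present in Dusp1 at -143 to -136 and in 1.55% of all promoters. TGACATCA was present in Jun at -45 to -38 and in 2.93% of all promoters. The AP-1 site TGANTCA (6.75% of all promoters), the interferon regulatory motif GAAANNGAAA (2.98%), the composite motif GGAANNGAAA (2.3%) and the CArG box bound by SRF (1.47%) were not found in these stretches of the 8 members. Bases further upstream were not searched, so their absence holds for these stretches only. The Jund stretch (chr8:70697489-70697738) does not adjoin the annotated gene, which starts at chr8:70698949. TGACG and TGACATCA were chosen for the search after the sequences had been seen, and a match is a description of letters only.

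Gene counts per library ran from 605376 to 18357762, and the shallowest library was WT at 9 months, replicate 3. The microglial label was checked against 14 homeostatic microglia markers, whose summed share of counts was 4.5% to 7.97% in the libraries of WT and 5xFAD at 9 months, of the Batf3KO experiment and of the conditional knockout. In the IRF8KO experiment of 3 months it was lower, with 1.56% to 2.97% for WT and 0.736% to 1.32% for the knockout, and it was 0.433% to 1.04% in the groups without Irf8 at 9 months. Markers of neutrophils (16 genes) took 0.884% to 5.41% of counts in WT at 3 months of the IRF8KO experiment, 7.81% to 16.7% in IRF8KO at 3 months, and 6.57% to 15% in the groups without Irf8 at 9 months. Other lists moved with the same groups. Red blood cell genes took 0.913% to 15.8% of counts in the groups of the IRF8KO experiment at 3 months and the groups without Irf8 at 9 months, and at most 0.187% in the other libraries. Oligodendrocyte markers reached 6.34% in WT of the IRF8KO experiment at 3 months. At 9 months they took at least 0.736% in each IRF8KO library and 0.0237% to 0.0273% in WT, monocyte markers 0.631% to 1.55% and 0.00033% to 0.000777%, border macrophage markers 0.107% to 0.133% and 0.00139% to 0.00182%, and neuron markers 0.167% to 0.427% and 0.000347% to 0.000661%. In bulk RNA, a change in the cells sampled and a change in RNA per cell cannot be told apart. Summed counts of 4 Y-linked genes went against the female label in each library of the IRF8KO experiment at 3 months (7.81 to 161 CPM), of WT, IRF8KO and 5xFAD/IRF8KO at 9 months (4.63 to 307 CPM), and in 5xFAD replicate 3 (156 CPM). Some of these also had Xist reads, such as IRF8KO at 9 months replicate 3 (40.8 CPM Y-linked, 184 CPM Xist) and 5xFAD/IRF8KO replicate 1 (269 and 39.5 CPM), and whether brains were pooled is not stated beyond the isolation protocol. Irf8 was lower in each IRF8KO library than in any WT library of its age (104 to 185 against 253 to 332 CPM at 3 months, 15.8 to 138 against 500 to 583 CPM at 9 months), and where its remaining reads fall in the gene is not given by these files. Batf3 was at 0.428 to 0.507 CPM in Batf3KO and 23.1 to 27.7 CPM in its WT. The library labelled Cre replicate 1 had Irf8 at 1120 CPM, within the flox range of 951 to 1180 CPM, while the other Cre libraries had 346 to 480 CPM.

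Levels are given in CPM, gene counts put on a shared scale by library total and composition (TMM), as mean ± SD over the libraries of a group. Fos, the AP-1 subunit induced most sharply by many stimuli, spanned a range from 1.41 ± 0.551 CPM in 5xFAD (n = 3) to 192 ± 81.8 CPM in 5xFAD/IRF8KO (n = 3). By mean, the groups fell in 2 blocks, with no overlap between the neighbours at the border, IRF8KO at 3 months and flox. The upper block held 5xFAD/IRF8KO, WT of the IRF8KO experiment (103 ± 100 CPM, n = 4), IRF8KO at 9 months (83.9 ± 27, n = 3), WT at 9 months (54.6 ± 41.8, n = 3) and IRF8KO at 3 months (49.2 ± 24.3, n = 4). The lower block held flox (12.3 ± 8.62, n = 3), Cre (3.77 ± 5.11, n = 4), WT of the Batf3KO experiment (1.71 ± 0.378, n = 3), Batf3KO (1.58 ± 1.8, n = 3) and 5xFAD. Neighbouring groups within each block overlapped, and 1 library of the upper block, WT at 3 months replicate 4 at 4.83 CPM, lay within the range of the lower one.

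**Figure D1:**
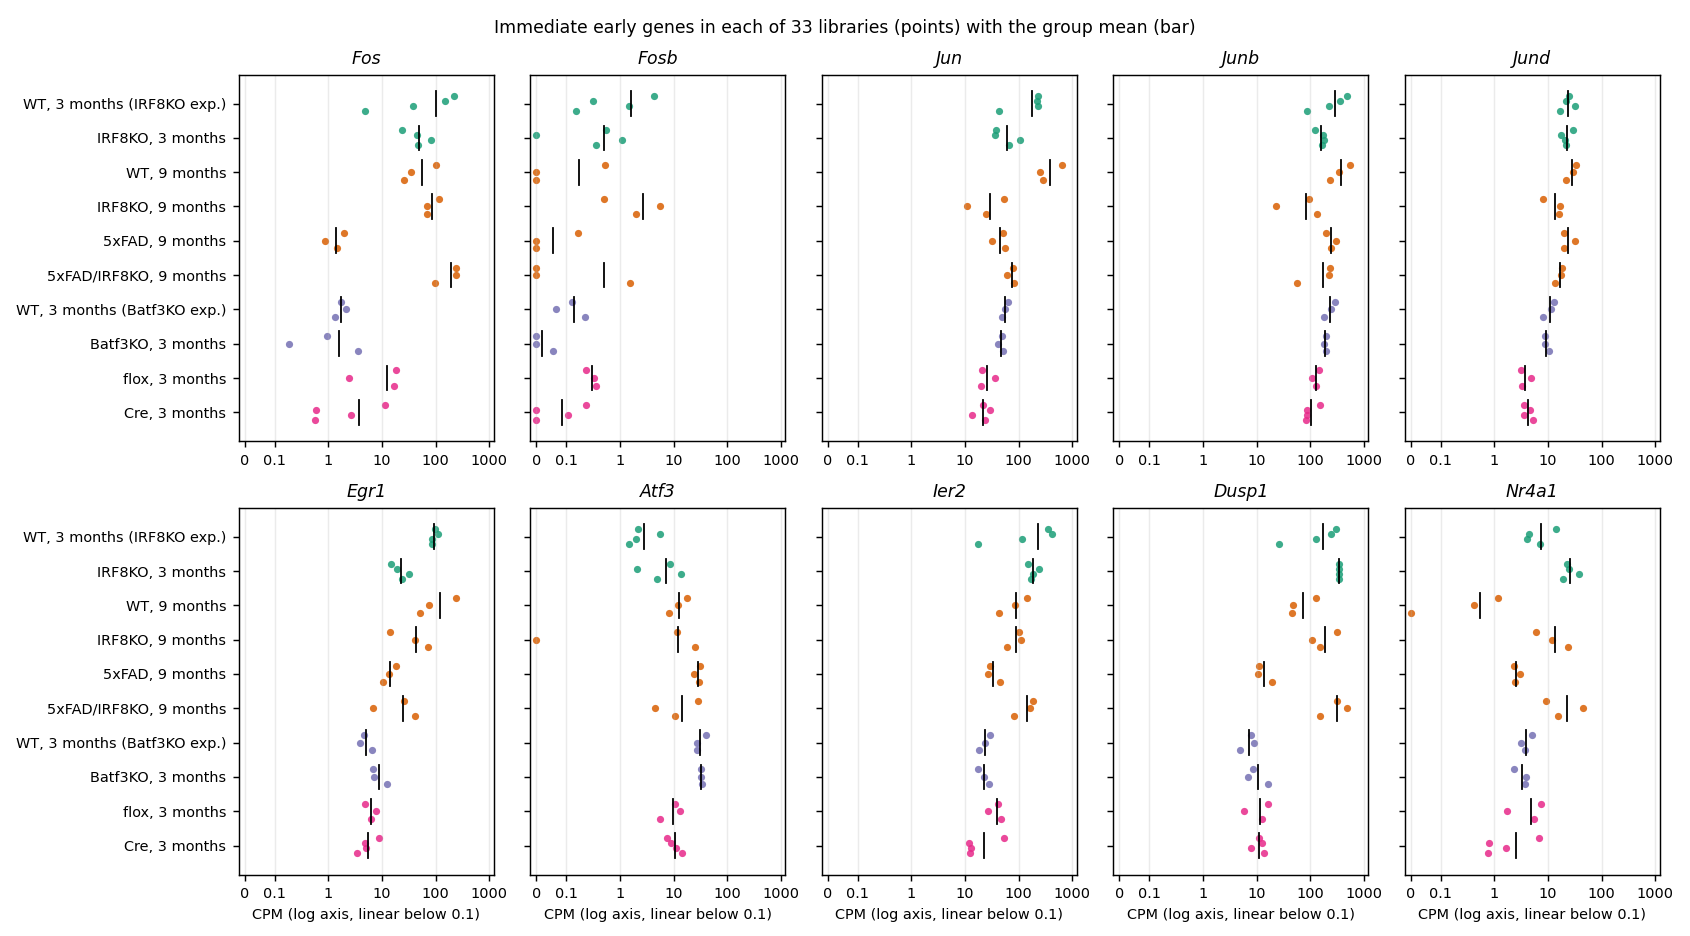
Level of each of the 10 immediate early genes in CPM (horizontal, log axis that is linear below 0.1) in the 33 libraries (points), by group (rows), with the group mean as a bar. Fos in the 5xFAD row sits at 0.851 to 1.95 CPM while every other 9-month row lies at or above 25.9 CPM.

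The members did not share an order of groups. Jun, the main partner of FOS in AP-1, was highest in WT at 9 months (386 ± 211 CPM, n = 3), and that group did not overlap the next, WT of the IRF8KO experiment at 178 ± 90.6 CPM (n = 4). Egr1, a zinc finger factor, was highest in the same 2 WT groups (121 ± 101 and 95 ± 12.3 CPM). Dusp1 and Nr4a1 were instead highest in IRF8KO at 3 months, at 347 ± 4.41 and 26.1 ± 8.55 CPM (n = 4). The 4 Dusp1 values in that group, 348, 341, 347 and 351 CPM, lay closer together, relative to their mean, than those of any other member in any group of 4 libraries. Atf3, a stress-induced bZIP factor, ran the other way: it was highest in Batf3KO (33.1 ± 1.14 CPM), WT of that experiment (31.8 ± 7.48) and 5xFAD (28.3 ± 3.6), where Fos was lowest. Jund, the JUN family member with steady expression in most cells, had group means between 3.73 CPM in flox and 28.3 CPM in WT at 9 months. Fosb, the other FOS protein here, was close to the detection limit, with group means between 0.0185 CPM in Batf3KO, against 2.67 CPM in IRF8KO at 9 months and 0 reads in 11 of the 33 libraries.

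Per kilobase of exon, the ranking of the members within a group also differed. In WT at 9 months the mean level was 162 CPM per kilobase for Junb, 121 for Jun, 59.4 for Ier2, 26.9 for Egr1, 23.2 for Fos and 22.2 for Dusp1, with Nr4a1 at 0.153. In 5xFAD at the same age it was 107 for Junb, 22.1 for Ier2 and 14.3 for Jun, with Nr4a1 at 0.735 and Fos at 0.601. Junb was thus the most abundant member per length in both groups, while Fos was the fifth in WT and the ninth in 5xFAD, above Fosb alone. Genes on the other strand overlap Jun (Junos), Junb (Prdx2), Jund (Gm11175), Atf3 (Gm24748) and Dusp1 (Gm8225 and Ergic1, besides 2 genes on its own strand). The counts ignored strand. Whether reads from the shared stretches were given to a member, or left out as naming no single gene, was not examined.

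The first comparison asked how the 5xFAD transgenes affected microglia at 9 months. Fos, Jun and Dusp1 fell, and no member rose. The 3 of 10 members called lower at an adjusted p under 0.05 stand beside 0.178% of the 14604 genes tested that were called lower, 1.81% called higher and 1.99% in either direction. Fos is among them and was known to be lower when the list was drawn up, so this count is not independent support. Fos was at 103, 35.2 and 25.9 CPM in WT. The 5xFAD values were 1.95, 0.851 and 1.43 CPM. Every 5xFAD library was below every WT library, and the log2 fold change was -5.31 (SE 0.654, adjusted p = 0.0083). The counts behind the 5xFAD values were 24, 5 and 3 reads, so the lowest Fos levels carry wide counting intervals (exact 95% binomial interval 0.321 to 4.55 CPM for the 3 reads of replicate 3, before composition scaling). Intervals here cover counting error only, since the libraries carried no molecular identifiers.

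Jun was at 629, 245 and 285 CPM in WT. It fell to 50.9, 31.2 and 54.5 CPM in 5xFAD, again without overlap (log2 fold change -3.17, SE 0.545, adjusted p = 0.0162). Dusp1 was at 126, 48.4 and 46.6 CPM in WT. It fell to 11.1, 10.7 and 19.6 CPM in 5xFAD (log2 fold change -2.54, SE 0.563, adjusted p = 0.0412). Both genes were highest in WT replicate 1, as was Fos. Egr1 had no overlap either, with 237, 73.5 and 51.8 CPM in WT. The 5xFAD values were 17.9, 13.5 and 10.5 CPM, and the difference did not pass the test (log2 fold change -3.18, adjusted p = 0.0671). Uncalled members had log2 fold changes between -3.18 and 1.83. At the upper end were Nr4a1, an orphan nuclear receptor (2.28, 3.07 and 2.39 CPM against 1.18, 0.425 and 0 CPM in WT), and Atf3 (31.4, 24.4 and 29.2 against 18, 12.3 and 8.29 CPM), which were higher in each 5xFAD library than in any WT library without passing the test. The Nr4a1 values in WT rest on 9, 1 and 0 reads. How many of all genes tested separate the libraries in this way was not counted.

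The size of the Fos difference was kept under every setting tried (log2 fold change -5.77 to -4.51), but the calls were not. Without 5xFAD replicate 2 or replicate 3 no member was called, and Fos had an adjusted p of 0.0697 and 0.0619. Without any WT replicate, or without 5xFAD replicate 1, Fos alone was called. The totals over all genes in these fits without a library are not reported here. DESeq2 called 5 members, with 900 genes called in all, and limma voom 6, with 3821 genes called in all, against 290 genes in edgeR. With only the groups compared in the model, edgeR called 7 members, with 4546 genes called in all.

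Several measured features ran alongside this comparison. Y-linked counts were 307, 275 and 278 CPM in the WT libraries and 0, 0 and 156 CPM in 5xFAD replicates 1, 2 and 3. A covariate was made from Y-linked counts less Xist counts, each as log2(CPM + 1), and is called the Y-linked covariate here. With this covariate 2 genes were called over the whole table, against 290 without it. No member was called, and Fos had a log2 fold change of -5.47 with an adjusted p of 0.186. Markers of other cells were near 0 in both groups. The neutrophil genes Ngp, Ltf, Camp and Ly6g were at 0 reads in the WT libraries. Among 16 neutrophil genes only Csf3r reached 5 CPM in either group, none of 8 monocyte genes did, and red blood cell genes took at most 0.00529% of counts. Microglia markers took 7.21% to 7.43% of counts in WT and 6.67% to 7.16% in 5xFAD.

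The wider lists of the pathway were counted in the same comparison. In edgeR, 0 of 18 tested AP-1 and related bZIP genes, 0 of 24 other immediate early transcription factors, 0 of 30 feedback inhibitors and 0 of 27 upstream kinases and factors were called. At an unadjusted p under 0.05 there were 4, 4, 2 and 3 of them, beside 1637 of the 14604 genes tested. DESeq2 called 1 higher and 1 lower of the bZIP genes, 1 lower transcription factor and 1 lower upstream gene. Limma voom called 5 higher and 3 lower, 2 and 3, 2 and 5, and 1 and 10 in the same order of lists, which stand beside its 3821 calls over all genes. Median log2 fold changes of the lists ran from -0.382 (upstream genes) to 0.259 (bZIP genes), beside 0.00181 over all genes tested.

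A list of 43 genes known to respond to cell dissociation, with the members left out, was read in the same way, since handling of the tissue induces many of these genes. Its summed level was 3820 ± 1220 CPM in WT and 4270 ± 308 CPM in 5xFAD (n = 3 each). Its 9 heat shock genes alone summed to 1420 ± 595 CPM in WT and 1010 ± 39.9 CPM in 5xFAD, with overlapping libraries. Of 42 tested genes, 1 was called higher and 2 lower, at a median log2 fold change of 0.0145. The 2 that fell were the inducible heat shock genes Hspa1b (245 CPM in WT, 2.27 CPM in 5xFAD, log2 fold change -6.9, adjusted p = 0.0153) and Hspa1a (58.2 and 0.647 CPM, -6.6, adjusted p = 0.0158). The 1 that rose was Il1b, a cytokine of activated microglia (1.57 and 15 CPM, 2.99, adjusted p = 0.0407), and it was not called under the size factors of the DESeq2 type. Limma voom, with 3821 genes called in all, called 10 genes of this list higher and 12 lower. The part of handling in the fall of Fos was not tested.

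**Figure D2:**
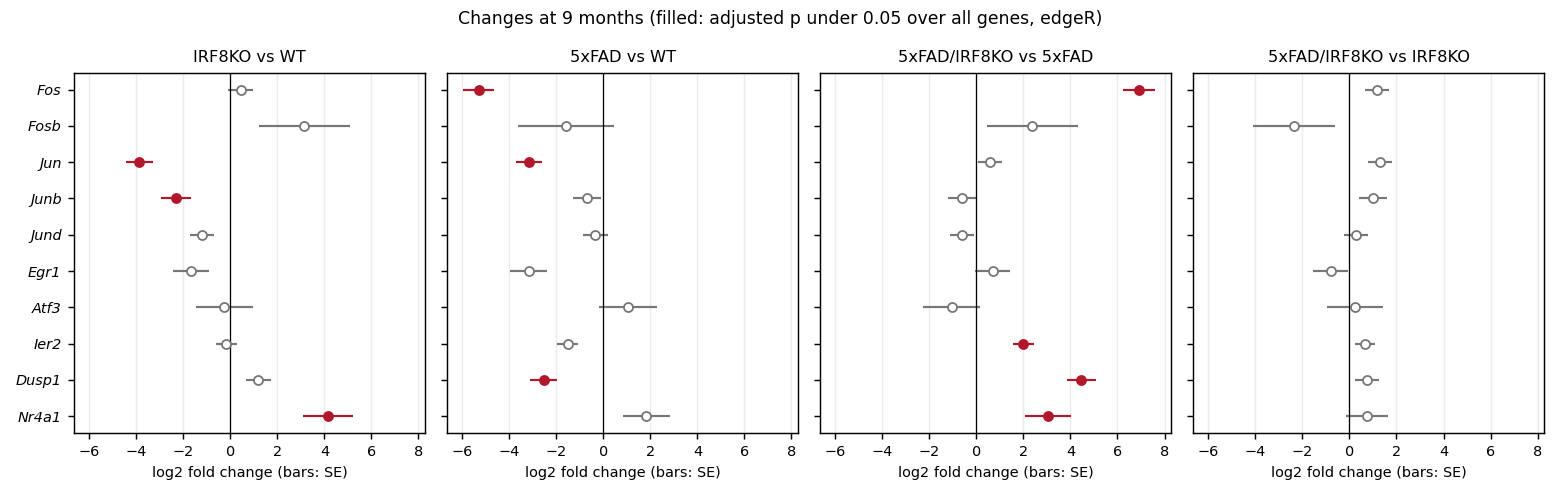
Log2 fold changes of the 10 members (rows, with SE bars) in 4 comparisons at 9 months, where filled points passed an adjusted p under 0.05. Fos lies at -5.31 in 5xFAD against WT and at 6.92 in 5xFAD/IRF8KO against 5xFAD, and the last panel holds no filled point.

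The loss of Irf8 in 5xFAD mice went with high Fos, Dusp1, Ier2 and Nr4a1. In 5xFAD/IRF8KO against 5xFAD, these 4 of 10 members were called higher, beside 18% of 14604 genes called higher, and none was called lower, beside 9.72% (27.8% in either direction). Low Fos in these 5xFAD libraries was already known, so its part in the count is not independent support. Fos was at 237, 242 and 98 CPM in 5xFAD/IRF8KO, against 1.95, 0.851 and 1.43 CPM in 5xFAD, a log2 fold change of 6.92 (SE 0.693, adjusted p = 2.34e-05). Dusp1 was at 314, 493 and 154 CPM against 11.1, 10.7 and 19.6 CPM (log2 fold change 4.46, SE 0.606, adjusted p = 0.00022). Both genes were separated by a wide gap between the groups and were called under each of the 14 alternatives run for each of them.

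Ier2, a nuclear protein of the early response, was at 186, 165 and 81.8 CPM against 29, 27.1 and 44.9 CPM (log2 fold change 2, SE 0.46, adjusted p = 0.0071). Nr4a1 was at 9.24, 44.5 and 15.4 CPM against 2.28, 3.07 and 2.39 CPM (log2 fold change 3.05, SE 0.971, adjusted p = 0.0347), and it was not called without any 5xFAD replicate or without 5xFAD/IRF8KO replicate 2 (adjusted p = 0.111 to 0.126), nor without a filter on low counts (0.0777), with the replicate block (0.0773) or with the Y-linked covariate (0.211). The groups did not overlap for either gene. With the Y-linked covariate, Fos and Dusp1 alone were called. Jun was higher in each 5xFAD/IRF8KO library than in any 5xFAD library without passing the test (log2 fold change 0.59, adjusted p = 0.426). Among uncalled members the log2 fold changes ran from -1.06 for Atf3 to 2.37 for Fosb.

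The wider lists contained changes in both directions in this comparison. Of 24 other immediate early transcription factors, 10 rose and 2 fell. Id1 (12.9 against 0.186 CPM) and Klf9 (27.5 against 0.566 CPM) were among those that rose, the former an inhibitor of helix-loop-helix factors and the latter a Krüppel-like factor. Of 18 bZIP genes, 3 rose and 4 fell. Jdp2, a repressor that pairs with JUN, rose from 17.6 to 116 CPM, Fosl2, a FOS family member, from 4.61 to 38.9 CPM, and Maf, a macrophage factor, fell from 178 to 30.8 CPM. Of 30 feedback inhibitors 5 rose and 2 fell, with Gadd45a, a stress sensor, at 0.647 CPM in 5xFAD, against 49.1 CPM in 5xFAD/IRF8KO. Of 27 upstream genes 4 rose and 2 fell, with Map3k5, a stress-activated kinase, rising from 12.8 to 62 CPM. Of 42 dissociation genes 11 rose and 6 fell, and the list's summed level was 4460 ± 703 CPM in 5xFAD/IRF8KO. Neutrophil markers, all 16 of which reached 5 CPM in 5xFAD/IRF8KO, took 8.31% to 15% of counts there and 0.0647% to 0.078% in 5xFAD, and the share of reads in genes was 56.8% to 72.0% and 77.3% to 78.6%. The part of cell content and of read quality in these differences was not tested.

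Against IRF8KO alone, 5xFAD/IRF8KO gave no called member in edgeR, beside 0.123% of genes called higher and 0.0411% lower (0.164% in all). At an unadjusted p under 0.05 there were 2 members, beside 1853 of 14604 genes, and DESeq2 and limma voom called 0 members. Fos was at 237, 242 and 98 CPM in 5xFAD/IRF8KO, against 115, 68.2 and 68.4 CPM in IRF8KO. These values overlapped, with a log2 fold change of 1.18 (SE 0.521, adjusted p = 0.369). The uncalled members ran from -2.37 to 1.29, and of the 4 wider pathway lists 0 genes were called in edgeR. At an unadjusted p under 0.05 there were 4 bZIP genes, 1 transcription factor, 2 inhibitors and 2 upstream genes, and DESeq2 called 2, 1, 1 and 0 of these lists higher. The list of dissociation genes had 1 called gene, Hspa1b, at 29 CPM in 5xFAD/IRF8KO, against 0.0819 CPM in IRF8KO. Neutrophil shares were 8.31% to 15% and 6.57% to 9.15%.

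The difference between the effect of 5xFAD with and without Irf8 was tested as an interaction. It was called for Fos (log2 difference 6.49, SE 0.829, adjusted p = 0.0121) and Jun (4.46, SE 0.743, adjusted p = 0.0339), that is, for 2 of 10 members beside 0.438% of genes called in either direction with 0.192% called higher and 0.247% lower. The fall of Fos in these 5xFAD libraries was already known, so its term is not independent support. Jun was at 77.1, 61.5 and 81.8 CPM in 5xFAD/IRF8KO, against 54.2, 11 and 24.1 CPM in IRF8KO, whereas in mice with Irf8 it was lower in 5xFAD. Uncalled members had interaction terms from -1.1 to 3.28. Fos lost its call without 5xFAD replicate 2 (adjusted p = 0.0882) or replicate 3 (0.061), and with the Y-linked covariate (0.351). Jun lost its call without any WT or 5xFAD replicate and without 5xFAD/IRF8KO replicate 1 (0.0692 to 0.156), in limma voom (0.134) and with the Y-linked covariate (0.371). With that covariate 1 gene was called over the whole table, against 64 without it. Of the dissociation list, Hspa1b and Hspa1a were the 2 genes called, both higher. The comparisons at 9 months share groups, so their values are set side by side and are not independent of each other.

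IRF8KO was compared with WT at each age, in sorted cells whose marker content differed between the genotypes. At 9 months Jun and Junb fell and Nr4a1 rose, while Fos did not pass the test. The 2 members called lower stand beside 8.68% of 14604 genes, and the 1 called higher beside 19.6% (28.3% in either direction). In all, 3 of 10 members were called, which is near the share over all genes. Jun was at 54.2, 11 and 24.1 CPM in IRF8KO, against 629, 245 and 285 CPM in WT (log2 fold change -3.87, SE 0.562, adjusted p = 0.000342). Junb was at 94.3, 23.3 and 134 CPM in IRF8KO, against 551, 337 and 230 CPM in WT (log2 fold change -2.32, SE 0.626, adjusted p = 0.016). All libraries of the groups were separate for both genes, and replicate 2 of IRF8KO was the lowest for each.

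Nr4a1 was at 5.9, 11.9 and 23.3 CPM in IRF8KO, against 1.18, 0.425 and 0 CPM in WT, where the values rest on 9, 1 and 0 reads (log2 fold change 4.15, SE 1.06, adjusted p = 0.0124). For the WT library with 0 reads, 3 reads would correspond to 4.96 CPM before composition scaling, close to the lowest IRF8KO value. Fos was at 115, 68.2 and 68.4 CPM in IRF8KO, against 103, 35.2 and 25.9 CPM in WT (log2 fold change 0.431, SE 0.518, adjusted p = 0.583). These Fos values overlapped. Uncalled members ran from -1.68 to 3.14. Junb was not called without WT replicate 1 (adjusted p = 0.0632) and Nr4a1 not without WT replicate 2 (0.064), and neither was called with the Y-linked covariate.

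Among 18 bZIP genes 3 rose and 4 fell. Jdp2 rose from 4.52 to 76.3 CPM and Fosl2 from 3.58 to 34.6 CPM. Batf3 had 0 reads in every IRF8KO library of this age and 16.2 CPM in WT. Of 24 other immediate early transcription factors 8 rose and 3 fell, with Bhlhe40, a helix-loop-helix repressor, at 68.1 against 0.531 CPM. Of 30 feedback inhibitors 3 rose and 3 fell, of 27 upstream genes 2 rose and 3 fell, and of 42 dissociation genes 6 rose and 5 fell. Median log2 fold changes of the 5 lists lay between -0.421 (dissociation genes) and 1.08 (transcription factors), beside 0.248 over all genes. Hspa1b, at 245 CPM in WT, was at 0.0819 CPM in IRF8KO. Microglia markers took 0.433% to 1.04% of IRF8KO counts and 7.21% to 7.43% of WT counts, and neutrophil markers 6.57% to 9.15% and 0.075% to 0.0814%. The share of reads that fell in genes was 48.6% to 53.4% in IRF8KO and 74.7% to 77.3% in WT. The part of cell content and of read quality in the changes was not tested.

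At 3 months, Egr1 fell in IRF8KO and no other member was called in edgeR. This 1 of 9 tested members (Fosb was too low to be tested) stands beside 3.24% of 13121 genes called lower, 4.15% called higher and 7.39% in either direction. Egr1 was at 15, 19, 31.9 and 23.3 CPM in IRF8KO, against 97.6, 111, 85.8 and 85.2 CPM in WT, without overlap (log2 fold change -2.16, SE 0.344, adjusted p = 0.00417). It was called under each of the 15 alternatives run for it, including a covariate for the neutrophil share (adjusted p = 0.0369). Neutrophil shares did not overlap between the genotypes (7.81% to 16.7% in IRF8KO, 0.884% to 5.41% in WT), so this covariate cannot tell them from genotype. Shares of microglia markers (0.736% to 1.32% and 1.56% to 2.97%) and monocyte markers (0.596% to 1.42% and 0.0543% to 0.259%) did not overlap either. Their part in the fall of Egr1 was not tested. The other members ran from -1.61 for Jun to 1.79 for Nr4a1, and both of these were called by DESeq2 and limma voom. Nr4a1 was at 22.3, 24.4, 38.5 and 19.1 CPM in IRF8KO, against 13.8, 4.4, 4.01 and 6.95 CPM in WT, without overlap. Dusp1 also had no overlap, with 341 to 351 CPM in IRF8KO, against 302, 239, 131 and 25.7 CPM in WT.

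Fos varied more among the 4 WT libraries of this experiment than between the genotypes. It was at 223, 147, 37.3 and 4.83 CPM in WT. The IRF8KO values were 23.6, 44.3, 82.2 and 46.7 CPM (log2 fold change -1.15, SE 0.803, adjusted p = 0.426). WT replicate 4 was the lowest WT library for Fos, Jun (42.6 CPM), Junb (85.9), Ier2 (17.2) and Dusp1 (25.7), but not for Egr1 beyond the spread of the others (85.2). Its microglia marker share of 1.56% was the lowest of the 4 WT libraries, where the others had 2.97%, 2.5% and 2.19%, and its neutrophil share of 5.41% was the highest. Without it, Jun and Junb were called lower along with Egr1, so 3 members in all, with the total over all genes not reported here. Without WT replicate 1, Egr1 and Nr4a1 were called, beside 845 genes in all, against 970 with every library.

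Of 23 other immediate early transcription factors at 3 months, 4 rose and 0 fell, namely Bhlhe40 (log2 fold change 2.67), Cited2 (1.97), Klf10 (1.95) and Klf6 (1.13). Of 19 bZIP genes 3 rose (Jdp2, 2.23; Fosl2, 1.96; Mafg, 1.15) and 1 fell (Batf3, -5.33). Of 27 upstream genes 4 rose, led by Map3k5 (3.24), and Nfatc1 (1.68). Of 29 feedback inhibitors 2 rose, Nab1, a repressor that binds EGR1 (1.51), and Dusp6, an ERK phosphatase (1.14). Of 42 dissociation genes 2 rose and 5 fell, among the latter the chemokine genes Ccl4 (-4.14) and Ccl3 (-2.62). Neutrophil shares were 7.81% to 16.7% in IRF8KO and 0.884% to 5.41% in WT. Their part was not tested for these lists.

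The effect of IRF8KO at 9 months was compared with that at 3 months in 1 model, in which age and experiment cannot be told apart. In edgeR 0 of 10 members differed, beside 18% of genes called higher and 5.92% lower (24% in all). At an unadjusted p under 0.05 there were 2 members, beside 5704 of 15512 genes, and DESeq2 and limma voom called 0 members. The log2 difference for Fos was 1.67 (SE 1.13, adjusted p = 0.307), and those of the other members ran from -2.18 for Jun to 4.88 for Fosb. Without IRF8KO at 9 months replicate 1, Jun was called.

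Loss of Batf3 left the members without a called change in edgeR, beside 1.41% of 13128 genes called higher and 2.42% lower (3.83% in all). At an unadjusted p under 0.05 there was 1 member, beside 2415 of the 13128 genes, and DESeq2 and limma voom called 0 members. Fos was low in both groups, at 0.951, 0.184 and 3.61 CPM in Batf3KO, against 1.69, 2.1 and 1.34 CPM in WT (log2 fold change -0.055, SE 0.69, adjusted p = 0.981), and the direction of this small difference turned when certain libraries were left out (WT replicate 2, or Batf3KO replicate 1 or 2). The other tested members lay between -0.229 for Junb and 0.849 for Egr1. Egr1 was at 6.72, 7.04 and 12.4 CPM in Batf3KO, against 4.55, 3.87 and 6.63 CPM in WT, without overlap (adjusted p = 0.134). Without WT replicate 3, Junb was called.

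In contrast to the members, 13 of 38 tested dissociation genes rose in Batf3KO and 1 fell, with a median log2 fold change of 0.176 beside 0.00239 over all genes. Klf2, a Krüppel-like factor (log2 fold change 1.88, adjusted p = 0.000179), and the heat shock genes Hsph1 (1.18, adjusted p = 0.00111) and Hspa8 (0.992, adjusted p = 1.48e-05) rose, and Il1a, a cytokine, fell by 2.32 (adjusted p = 1.54e-06). The 9 heat shock genes of the list summed to 1360 ± 127 CPM in Batf3KO and 774 ± 11.9 CPM in WT (n = 3 each), while the 10 members summed to 328 ± 26 and 375 ± 78 CPM. Of 28 feedback inhibitors 4 rose, including Zfp36 (0.385), which destabilises early mRNAs, and Dusp6 (0.379). Of 18 other transcription factors 3 rose, Klf2, Per1 (1.26) and Nfil3 (0.911), and Myc fell by 0.879. Of 19 bZIP genes 2 rose, Cebpb (0.664) and Atf7 (0.577), and the deleted gene Batf3 was lower. Of 26 upstream genes 0 were called in edgeR, and 1 was called higher by DESeq2 and by limma voom. At an unadjusted p under 0.05 there were 7, beside 2415 of 13128 genes over the whole table. Neutrophil genes other than Csf3r stayed below 5 CPM in both groups.

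The 2 WT groups at 3 months were compared to show how far the members differ between experiments at the same labelled genotype and age. Fos, Jun, Egr1, Ier2 and Dusp1 were higher in WT of the IRF8KO experiment than in WT of the Batf3KO experiment and Atf3 was lower, so 5 of 9 tested members were called higher and 1 lower, beside 26.5% and 16.3% of 14621 genes (42.8% in either direction). The log2 fold change was 5.98 for Fos (SE 1.17, adjusted p = 0.00302), 4.66 for Dusp1 (SE 0.776, adjusted p = 0.0014) and 4.32 for Egr1 (SE 0.376, adjusted p = 0.000116). It was 3.32 for Ier2 (SE 0.875, adjusted p = 0.0123), 1.74 for Jun (SE 0.518, adjusted p = 0.021) and -3.37 for Atf3 (SE 0.607, adjusted p = 0.00207). Fos, Egr1, Dusp1 and Atf3 were called under each of the 13 alternatives, while Jun and Ier2 were not without some libraries. Uncalled members ran from 0.395 to 1.21. No test compared the Fos difference between these WT groups with that between 5xFAD and WT at 9 months, and the contrasts are unlike. Microglia markers took 1.56% to 2.97% of counts in WT of the IRF8KO experiment and 7.77% to 7.97% in the other WT. Red blood cell genes took 3.08% to 10.3% and 0.0101% to 0.0222%. In 5xFAD and WT at 9 months microglia markers took 6.67% to 7.16% and 7.21% to 7.43%, and red blood cell genes at most 0.00529%.

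Dissociation genes also moved between the WT groups, with 17 of 39 higher and 5 lower and a median log2 fold change of 1.4 beside 0.123 over all genes. Hspa1a (23.3 against 0.245 CPM), Hspa1b (55.5 against 0.444 CPM), Nr4a2 (8.79 against 0.277 CPM) and Hsp90aa1 (187 against 27.6 CPM) led those that were higher. Of 22 other immediate early transcription factors 8 were higher and 3 lower. Of 19 bZIP genes 4 were higher and 2 lower, of 30 inhibitors 5 and 5, and of 27 upstream genes 1 and 7. Neutrophil markers took 0.884% to 5.41% of counts in WT of the IRF8KO experiment and 0.105% to 0.11% in the other, and Y-linked counts were 7.81 to 107 CPM and 0 CPM. Experiment, cell content and the Y-linked signal cannot be told apart here.

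In the conditional knockout as labelled, no member was called in edgeR, beside 0% of 15512 genes called. At an unadjusted p under 0.05 there were 0 members and 1407 genes, and DESeq2 and limma voom called 0 members. Fos was at 11.3, 0.591, 2.64 and 0.564 CPM in Cre, against 17.9, 2.39 and 16.7 CPM in flox (log2 fold change -1.74, SE 0.826, adjusted p = 0.571). The highest Cre value was that of replicate 1, the library whose Irf8 level goes against its label, and the lowest flox value was that of replicate 2. The members ran from -1.74 to 0.236.

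Without Cre replicate 1, Fos, Ier2 and Nr4a1 fell. These 3 of 9 tested members stand beside 2.5% of 15264 genes called lower, 3.74% called higher and 6.24% in either direction. Ier2 was at 11.9, 13 and 12.6 CPM in Cre replicates 2 to 4 and 41.9, 27.2 and 47.1 CPM in flox, without overlap (log2 fold change -1.58, SE 0.22, adjusted p = 4.96e-05). In the library labelled Cre replicate 1 it was at 54 CPM. Fos fell (log2 fold change -3.26, SE 0.613, adjusted p = 0.0014), with means of 1.26 ± 1.19 CPM in Cre and 12.3 ± 8.62 CPM in flox (n = 3 each), and its libraries still overlapped because flox replicate 2 was low. Nr4a1 was at 0.787, 1.65 and 0.751 CPM in Cre, against 7.37, 1.74 and 5.54 CPM in flox (log2 fold change -2.15, SE 0.548, adjusted p = 0.0193). Jun (22.2 ± 8.1 against 25.8 ± 9.56 CPM) and Dusp1 (11.4 ± 3.18 against 11.6 ± 5.46 CPM) were not called.

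**Figure D3:**
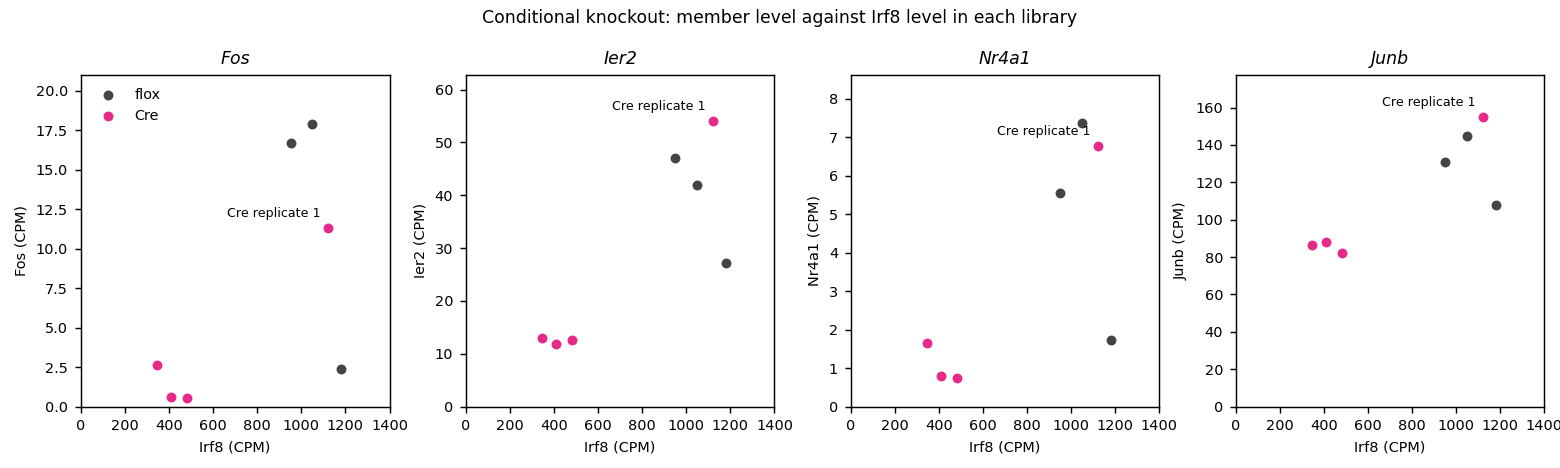
Level of Fos, Ier2, Nr4a1 and Junb (vertical, CPM) against the level of Irf8 (horizontal, CPM) in the 3 flox and 4 Cre libraries of the conditional knockout. The library labelled Cre replicate 1 lies with the flox libraries at 1120 CPM of Irf8, and Cre replicates 2 to 4 have Ier2 at 11.9 to 13 CPM.

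The wider lists held calls in both directions in Cre replicates 2 to 4. Of 23 other immediate early transcription factors 2 rose and 4 fell, the latter being Ier3 (182 CPM in flox and 12.5 CPM in Cre, log2 fold change -3.81), Hes1 (-1.85), Klf2 (-1.19) and Klf10 (-1.17). Of 19 bZIP genes 2 fell, Crem, a cyclic AMP-responsive repressor (-2.42), and Fosl2 (-1.47), and 2 rose, among them Batf3 (3.78). Of 30 feedback inhibitors Dusp5 fell (-2.26) and Btg1 rose (0.765), and of 27 upstream genes Nfatc1 fell (-0.658). Of 41 dissociation genes 6 fell, among them Il1b (-3.66) and Hspa1b (-2.15), and Il1a rose (1.71), with a list median of -0.421 beside -0.00996 over all genes. The summed dissociation list was 4150 ± 386 CPM in flox and 3400 ± 169 CPM in all 4 Cre libraries. As labelled, with replicate 1 in, edgeR called 0 genes of each of the 5 lists (3, 2, 3, 1 and 10 at an unadjusted p under 0.05, for bZIP genes, transcription factors, inhibitors, upstream and dissociation genes), DESeq2 called 0, and limma voom called 2, 2, 0, 0 and 1 lower. The unadjusted counts stand beside 1407 of 15512 genes over the whole table. Markers of border macrophages (10 genes), which also express Cx3cr1, moved with these changes. They took 0.0122% to 0.017% of counts in flox, 0.0215% in the library labelled Cre replicate 1 and 0.000767% to 0.00122% in Cre replicates 2 to 4, and their part in the fall of Fos, Ier2 and Nr4a1 was not tested. Microglia markers took 4.57% to 4.68% of counts in flox and 4.5% to 5.14% in Cre, and neutrophil markers at most 0.0418% in either.

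Fosl2, a FOS family member that is not among the members, was higher in IRF8KO at 3 and 9 months and in 5xFAD/IRF8KO against 5xFAD, but lower in Cre replicates 2 to 4 than in flox. No test compared the germline with the conditional knockout, and they differ in cell content and experiment.

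Co-variation was described from the deviations of log2(CPM + 1) from the group mean over the 33 libraries, for the 9 members that averaged 5 CPM or more over all libraries. The gene closest to Fos among 11120 genes was another member, Ier2 (Pearson r = 0.884), and Dusp1 was the fifth (0.784). The others of the 8 closest were Vgll4 (0.821), Klf2 (0.805), Metrnl (0.784), Il18bp (0.784), Zfp36 (0.78) and H2-D1 (0.776). Fos went less closely with Junb (0.688) and Jun (0.485), and hardly with Egr1 (0.202), Atf3 (0.116) or Jund (-0.00186). Of 36 pairs of members 32 had an r above 0 and 10 had an r above 0.5, with a median of 0.204. The libraries share depth and cell content within an experiment: Jun had an r of 0.781 with the share of microglia markers, Atf3 0.649 and Fos 0.387, and Fos had -0.00136 with the share of neutrophil markers.

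**Figure D4:**
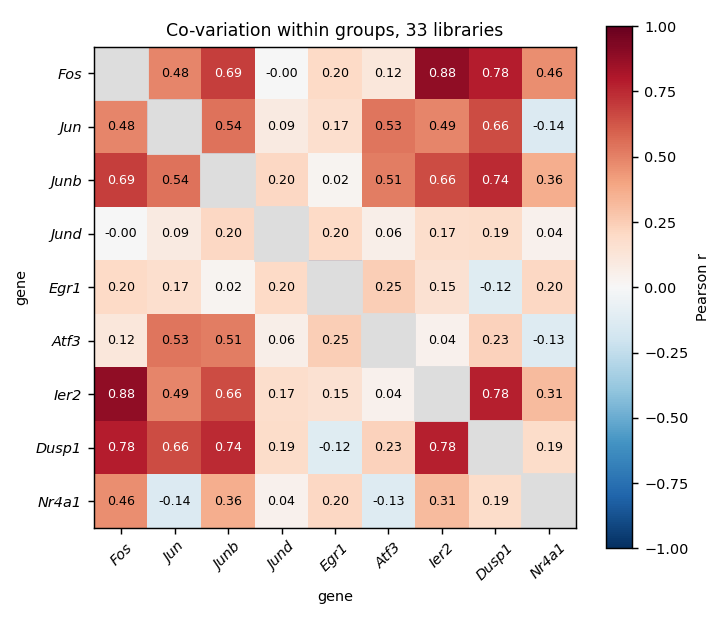
Pearson r (colour and number) between members (rows and columns) of deviations from the group mean of log2(CPM + 1) over 33 libraries. Fos, Ier2 and Dusp1 form the block of highest values (0.776 to 0.884), and Jund and Egr1 have no value above 0.25 with any member.

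The genes closest to the mean of the members among 11112 genes were H13 (0.8), Pithd1 (0.775), Mrpl38 (0.768), Ninj1 (0.767), Zfpm1 (0.76), Tspan4 (0.759), Msra (0.752) and Akr1b3 (0.746). These are not early response genes by name, and the values carry no test.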

How the data were processed

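The authors deposited whole-number counts of reads per gene without normalization for 33 libraries. STAR 2.5.2b, Picard 2.17.11 and featureCounts are named with mm10 in the submitters' processing notes, and the file layout is that of STAR gene counts. Counting without regard to strand was kept, as the first strand's share was 49.5% to 50.1%. Lines that name no gene (21.4% to 52.7% of reads) were left out. Of 54146 identifiers, 54079 matched GENCODE M21 (GRCm38) when the version was ignored. Members and lists were chosen with earlier results of these data known.

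Groups came from titles. Genes kept by filterByExpr went into edgeR's quasi-likelihood test (edgeR 4.0.16, R 4.3.3, TMM scaling, Benjamini-Hochberg adjustment over all genes, called at 0.05), which was tested on simulated data. The libraries of 9 months were fitted together and the others by experiment. Alternatives were other scaling, no filter, DESeq2 1.42.0, limma 3.58.1 voom, all libraries together, only the groups compared, covariates, the replicate block and leaving out each library. Fos was named in every comparison, other members where called, others by range, and up to 4 called genes per list by size at 5 CPM or more. Non-overlapping members were added after values were seen, and the share of all genes without overlap was not counted in any comparison. Some list genes are not reported here. Whether replicate numbers pair libraries is not known. Correlations of same-numbered libraries ran from -0.244 to 0.216 and those of other pairs from -0.276 to 0.249. In the IRF8KO experiment at 3 months they were -0.0776 to 0.216 and -0.253 to 0.228. With 3 or 4 libraries per group these values cannot exclude pairing, and the main fits used no replicate block.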

Additional observations from a re-analysis of the deposited data

Results flagged for a closer look

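Of 30 member and group combinations with 4 libraries, 5 held a library whose gap to its nearest neighbour exceeded Dixon's 95% critical value. Chance flags about 1 in 20 such groups. In the library labelled Cre replicate 1, Junb (155 CPM), Ier2 (54 CPM) and Nr4a1 (6.78 CPM) stood above the other Cre libraries, the same library whose Irf8 level lay in the flox range. In WT of the IRF8KO experiment at 3 months, Jun was lowest in replicate 4 (42.6 CPM) and Atf3 highest in replicate 2 (5.65 CPM).

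The effect of 5xFAD differed between mice with and without Irf8 for Fos (6.49 on the log2 scale, adjusted p = 0.0121 in edgeR) and for Jun (4.46, adjusted p = 0.0339). The fall of Fos in 5xFAD was known when the list was drawn up, so its flag is not independent support. In mice with Irf8, 3 of 3 5xFAD libraries were below all WT libraries for both genes. In mice without Irf8, 3 of 3 5xFAD/IRF8KO libraries were above all IRF8KO libraries for Jun, and 2 of 3 for Fos.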

How the results depend on the processing

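Of the fold changes given for single members, 305 values under an alternative kept direction and side of the threshold, 49 kept direction but passed no longer, 2 passed newly and 3 turned. The 3 were Fos in Batf3KO, at 0.107 without WT replicate 2, 0.196 without Batf3KO replicate 1 and 0.465 without Batf3KO replicate 2. Without Batf3KO replicate 3 it was -1.51. Without TMM factors 96 group means moved by less than the spread and 4 by more. With DESeq2's size factors the median over all genes shifted by 0.164 for the difference between ages, and by less in the other comparisons.

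The number of members called moved as follows. For IRF8KO at 3 months (1) it was 2 without a filter, 3 with DESeq2, 3 with limma voom and 2 with all libraries together, with 1655, 2049, 1680 and 3300 genes called against 970. For IRF8KO at 9 months (3) it was 5 with all libraries together and 1 with the Y-linked covariate, with 6836 and 2201 genes called against 4136. For 5xFAD against WT (3) it was 5 with DESeq2, 6 with limma voom, 7 with only the groups compared and 0 with the Y-linked covariate, while the genes called over the whole table numbered 900, 3821, 4546 and 2, against 290. For 5xFAD/IRF8KO against 5xFAD (4) it was 2 with the Y-linked covariate, with 2234 genes called against 4054. For the interaction (2) it was 4 with DESeq2, 1 with limma voom and 0 with the Y-linked covariate, with 904, 11 and 1 genes called against 64. Without a filter it was 1 for Batf3KO, 2 for Cre against flox and 1 for the difference between ages (each 0), with 998, 618 and 4006 genes called against 503, 0 and 3717, and the last was also 1 with all libraries together (6342 genes). The cause was not tested.

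Leaving out each library in turn gave 1 to 3 members for IRF8KO at 3 months, 2 to 3 at 9 months, 0 to 1 for 5xFAD against WT, 3 to 4 for 5xFAD/IRF8KO against 5xFAD, 0 against IRF8KO, 0 to 3 for the interaction, 0 to 1 for Batf3KO, 0 to 3 for Cre against flox, 4 to 7 between the WT groups and 0 to 1 for the difference between ages. Calls over all genes moved as well, so these ranges do not describe the members alone. For IRF8KO at 3 months, 845 genes were called without WT replicate 1 and 871 without WT replicate 2, against 970. For Cre against flox, 952 were called without Cre replicate 1, against 0. The other totals are not reported here.

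The replicate block, tried although the labels share only numbers, called 1 member (Jun) for the difference between ages. It called 1, 3, 2, 3, 0, 2, 0, 0 and 6 members in the other comparisons, in the order just given, with Dusp1 lost in 5xFAD against WT (adjusted p = 0.0828) and Nr4a1 lost in 5xFAD/IRF8KO against 5xFAD (0.0773). For IRF8KO at 3 months the block called 988 genes in all, against 970, and its other totals are not reported here. Few reads were counted for Fosb in most libraries, for Fos in 5xFAD and for Nr4a1 in WT at 9 months, which limits the precision of these levels. This held in deep libraries too, such as Batf3KO replicate 2 with 0 Fosb reads among 15866172 gene counts.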

Other observations

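Batf3, a gene outside the members, was at 4.15, 4.35 and 1.89 CPM in the flox libraries and at 32.1, 63.8 and 43.8 CPM in Cre replicates 2 to 4, while it was at 23.1 to 27.7 CPM in WT of the Batf3KO experiment and at 0 reads in the libraries without Irf8 at 9 months. No test compared these experiments.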
